A study of Mus musculus with 8 samples.

Results

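The genes described here bind, carry or store metals in mouse lung: the metallothioneins *Mt1* and *Mt2*, the zinc and iron carriers *Slc39a14*, *Slc11a1*, *Slc40a1* and *Tfrc*, the ferritin subunits *Fth1* and *Ftl1*, and the manganese enzyme *Sod2*. They were chosen by name for metal handling, with earlier results of these data known, and all 9 were found among the 55416 genes of the count tables. Lung RNA was sequenced from 8 separate mice to ask how an inhibitor of protein arginine deiminases changes the lung in endotoxin shock. All were female mice of 6 to 8 weeks, labelled C57BL/6 and named C57BL/6J in the methods. The 3 control mice (1, 2 and 4) received the solvent DMSO intravenously and then saline intraperitoneally. Lipopolysaccharide (LPS), a cell wall component of Gram-negative bacteria, was given intraperitoneally at 35 mg/kg to the 3 LPS mice (1, 6 and 7). The 2 dual-treated mice (2 and 5) received the inhibitor YW3-56 in DMSO at 10 mg/kg before the same dose of LPS. Lungs were taken 24 h after LPS. The methods name no DMSO for the LPS mice, so that the inhibitor and its solvent cannot be told apart in the comparison of the dual-treated with the LPS mice. As the methods are written, LPS and control mice also differ in the intravenous DMSO. That difference cannot be told apart from LPS itself, also where a change is described below as one with LPS. The methods speak of 3 sequenced mice in each group, but the labels and a figure legend of the paper give 2 dual-treated mice.

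Metallothioneins are small cysteine-rich proteins that hold zinc and copper, and their genes are switched on by the zinc-sensing factor Mtf1, by glucocorticoids and by inflammatory signals. Iron enters most cells bound to transferrin through the transferrin receptor, is stored in ferritin cages of heavy and light subunits, and leaves through ferroportin. During infection the host withdraws iron and zinc from microbes, and lung macrophages and neutrophils take part in this.

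Total counts ran from 19061949 to 20908608 per library. Levels are given as CPM, the counts scaled to library size with TMM normalization, and changes as log2 fold changes from 1 edgeR fit of all 8 libraries, in which a gene was called at a Benjamini-Hochberg adjusted p under 0.05 over the 18560 genes tested. All 9 genes passed the filter on low counts. Every lung marker was detected in each library, 10 of 10, and their summed level was 69087, 70371 and 75664 CPM in control mice 1, 2 and 4, 97392, 78692 and 72550.1 CPM in LPS mice 1, 6 and 7, and 44156 and 56909 CPM in dual-treated mice 2 and 5, with *Scgb1a1* as the most abundant gene. Without *Scgb1a1* the sums were 39673, 33534 and 41231 CPM in control mice, and 32079, 23297 and 18824 CPM in LPS mice, which were all lower. In dual-treated mice they were 21481 and 31814 CPM. Of these markers 3 were called higher and 3 lower with LPS, beside 32.6% and 33.9% of all tested genes. The tissue therefore carried the markers of lung in each mouse, at levels that differed between groups.

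Among the LPS mice, 2 libraries stood apart. The 10 genes of squamous epithelium summed to 746 CPM in LPS mouse 6 and 2086 CPM in LPS mouse 7, against 1.54 CPM in LPS mouse 1 and at most 25.5 CPM in the other libraries. The most abundant of them was *Krt4* in LPS mouse 6 and *Krt13* in LPS mouse 7, and *Sprr3* and *Dsg3* had 0 counts in every control library and in LPS mouse 1. The 10 skeletal muscle genes summed to 501 and 1288 CPM in LPS mice 6 and 7, where *Acta1* was the most abundant, and to 17.5 CPM in LPS mouse 1, with at most 19.8 CPM elsewhere. Results with LPS are therefore also given without these 2 mice where that changes a call. Only LPS mouse 1 is then left in its group, so that any call rests on the spread of the other groups.

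With LPS, 7 of the 9 genes were called higher, where 32.6% of all tested genes were, and 2 were called lower, where 33.9% were. The genes called higher were *Mt1*, *Mt2*, *Slc39a14*, *Slc11a1*, *Fth1*, *Ftl1* and *Sod2*, and those called lower were *Slc40a1* and *Tfrc*. In dual-treated against control mice 7 were called higher, against 9.13% of all tested genes, and these were *Mt1*, *Mt2*, *Slc39a14*, *Slc11a1*, *Fth1*, *Tfrc* and *Sod2*. None was called lower in that comparison by edgeR, where 7.02% of tested genes were, and the count of 0 was the same at an unadjusted p under 0.05 and in DESeq2. Against LPS alone, dual-treated mice had 5 genes called lower, *Mt1*, *Mt2*, *Slc39a14*, *Fth1* and *Sod2*, beside 27.4% of all tested genes. *Slc40a1* and *Tfrc* were the 2 called higher, beside 31.7%. The median log2 fold change of the 9 genes was 3.02, 1.01 and -1.24 in these comparisons, and that of all tested genes was -0.01, 0.00 and 0.06. The comparisons share mice, so that their values are not independent of each other.

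**Figure D1:**
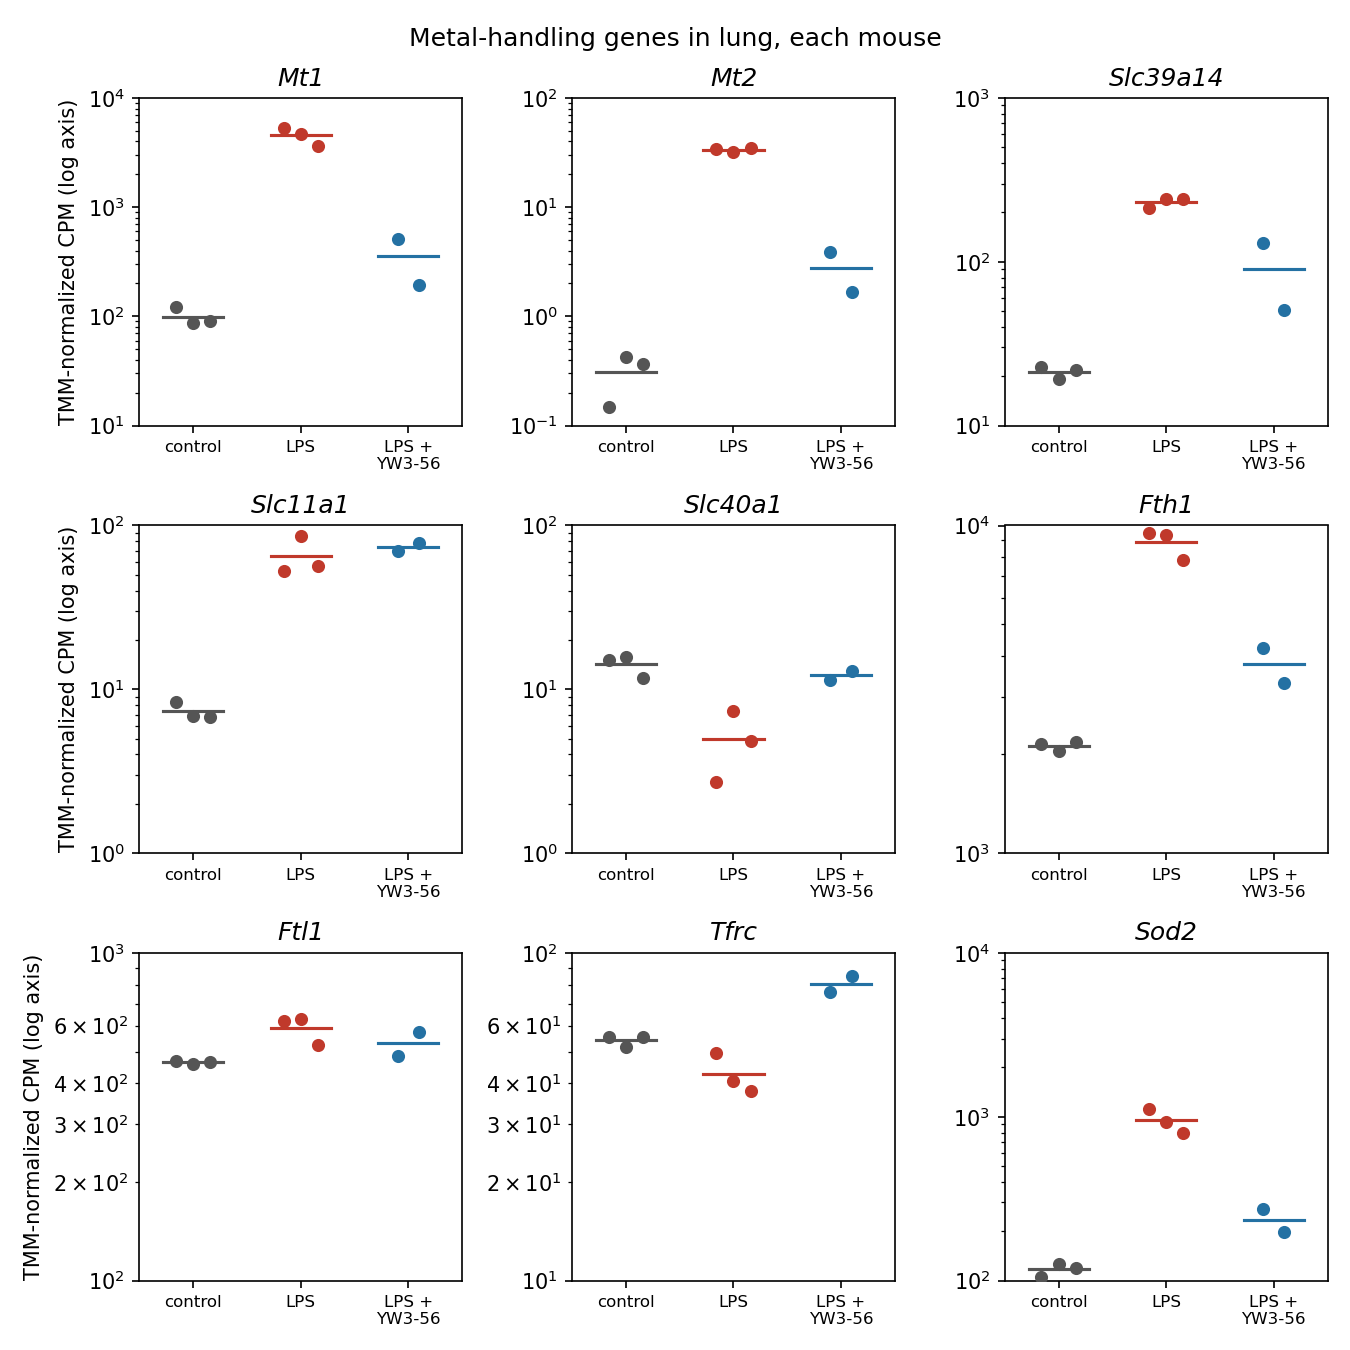
TMM-normalized CPM (log axis, with its own range for each gene) of the 9 genes in each mouse. Points are mice (3 control, 3 LPS, 2 LPS and YW3-56) and lines are group means. The *Mt1* points of the LPS mice, 3614 to 5283 CPM, lie above all others, whereas the *Tfrc* points of the LPS mice, 37.8 to 49.6 CPM, lie below all others.

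*Mt1* (ENSMUSG00000031765, chr8:94905710-94906955 of GRCm39, plus strand) encodes a metallothionein found in most tissues. Its level was 121, 86.2 and 91.2 CPM in control mice 1, 2 and 4, 5283, 4708 and 3614 CPM in LPS mice 1, 6 and 7, and 516 and 195 CPM in dual-treated mice 2 and 5. Each group was separate from the others, with the dual-treated mice between control and LPS. LPS raised *Mt1* 45.6-fold (log2 fold change 5.51, SE 0.38, 95% interval 4.66 to 6.37, adjusted p = 2.62e-06 from edgeR). The dual-treated mice were 3.58-fold above control (log2 fold change 1.84, SE 0.35, adjusted p = 0.0077 from edgeR) and 12.8-fold below LPS (log2 fold change -3.67, SE 0.41, adjusted p = 7.47e-05 from edgeR). Dual-treated mouse 2 was 2.65-fold above mouse 5, where the median difference between these mice over all tested genes was 1.19-fold. Without mouse 2 the log2 fold change against control was 0.94 and was no longer called, and that against LPS was -4.56 and still called.

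*Mt2* (ENSMUSG00000031762, chr8:94898819-94900207 of GRCm39, plus strand) encodes the second common metallothionein and lies next to *Mt1*. It had 3, 9 and 8 counts in the control mice, 580, 554 and 620 counts in the LPS mice, and 86 and 38 counts in the dual-treated mice. In CPM these were 0.147, 0.422 and 0.368 in control, 34.4, 32.0 and 34.6 with LPS, and 3.90 and 1.67 with dual treatment. The order of the groups was that of *Mt1*, again without overlap. The log2 fold change was 6.71 with LPS (SE 0.38, adjusted p = 1.08e-06 from edgeR), 3.12 in dual-treated against control mice (SE 0.43, adjusted p = 0.00152 from edgeR) and -3.60 in dual-treated against LPS mice (SE 0.35, adjusted p = 3.39e-05 from edgeR). Leaving out mouse 2 gave 2.35 against control and -4.35 against LPS, both still called.

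Another annotated gene overlaps *Mt2*. Exons of *Gm45774*, a gene on the minus strand at chr8:94892504-94900040, cover 82.4% of the exon bases of *Mt2*, and the strand setting of the counting is not stated. *Gm45774* had 6, 3 and 0 counts in the control mice, 402, 353 and 286 counts in the LPS mice, and 9 and 8 counts in the dual-treated mice. Without strand, reads of an overlapped stretch cannot be told apart, and what this did to the *Mt2* level was not tested. No exon base of *Mt1* was covered by another gene. The level of *Mt2* is thus uncertain, and so is its ratio to *Mt1*.

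**Figure D2:**
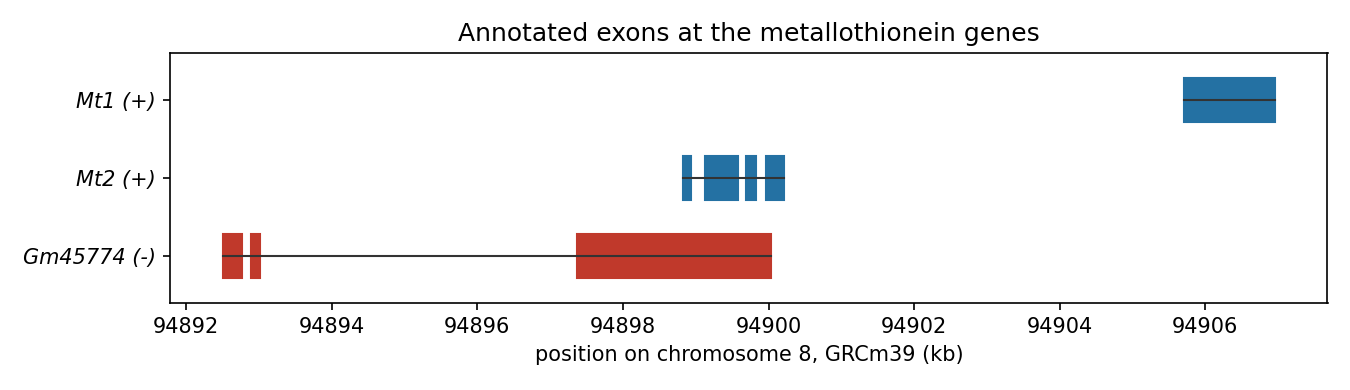
Annotated exons of *Mt1*, *Mt2* and *Gm45774* on chromosome 8 of GRCm39 (position in kb), as boxes that join the exons of all transcripts of a gene. Lines span each gene, and the strand is given beside its name. One exon of *Gm45774* lies over 82.4% of the exon bases of *Mt2*.

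Within each library, *Mt1* and *Mt2* together took 0.0130%, 0.00932% and 0.00970% of all counts in control mice, 0.430%, 0.423% and 0.339% in LPS mice, and 0.0577% and 0.0214% in dual-treated mice. These shares amount to scaling by library size alone and gave the same order of groups, without overlap. The difference between LPS and control was 0.387 percentage points (exact permutation test, two-sided, p = 0.1, adjusted p = 0.225 over 9 tests), and 0.1 is the smallest p that 3 against 3 mice allow. Between dual-treated and LPS mice the difference was -0.358 percentage points (exact permutation test, p = 0.2, the smallest that 2 against 3 mice allow). For each *Mt2* count there were 823, 204 and 248 *Mt1* counts in the control mice, 154, 147 and 104 in the LPS mice, and 132 and 117 in the dual-treated mice. With 3 to 9 *Mt2* counts in control, the ratio there rests on very few reads.

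RefSeq promoter windows were at hand for 7 of the 9 genes, *Mt1*, *Mt2*, *Slc11a1*, *Fth1*, *Ftl1*, *Tfrc* and *Sod2*. The core of the metal response element, searched on both strands as TGCACNC or TGCGCNC in the 250 bases before the RefSeq start, was found in 3 of these genes. One copy lay in the *Mt1* window, 3 in the *Mt2* window and 2 in 1 of 2 *Tfrc* windows. Bases after the RefSeq start, for *Mt1* those after 94905716, were not searched, and copies there would be missed. These are thus counts of the windows and not of whole promoters, and they do not rank *Mt1* against *Mt2*. Of all 32851 distinct windows in the table (GRCm38.p6), 21.4% held at least 1 copy and 1.26% at least 3. The antioxidant response element, searched on both strands as TGAC, 3 bases of any kind and GC, occurred in the *Mt2* window alone among the 7 genes and in 10.2% of all windows. The *Mt1* and *Mt2* windows were placed on GRCm39 by exact match and are shown because both genes moved together. Capitals mark the cores of the metal response element. The *Mt1* stretch is chr8:94905467-94905709 (plus strand) up to the first annotated exon base, and the *Mt2* stretch is chr8:94898996-94899131 (plus strand), which ends before the exon that starts at 94899132. The last line is the remaining *Mt2* copy, at chr8:94899185-94899213 (plus strand) inside that exon. A match is only a match of letters.
Mt1: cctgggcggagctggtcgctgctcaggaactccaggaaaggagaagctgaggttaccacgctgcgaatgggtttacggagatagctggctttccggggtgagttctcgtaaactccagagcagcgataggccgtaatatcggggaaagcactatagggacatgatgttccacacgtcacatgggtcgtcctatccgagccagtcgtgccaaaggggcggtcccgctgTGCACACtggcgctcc
Mt2: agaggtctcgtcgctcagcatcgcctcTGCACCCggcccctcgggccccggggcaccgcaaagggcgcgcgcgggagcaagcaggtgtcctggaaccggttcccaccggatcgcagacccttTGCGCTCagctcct
Mt2, exon copy: ggggggagggcGTGTGCAggctctgtccc

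*Slc39a14* (ENSMUSG00000022094, chr14:70540678-70588914 of GRCm39, minus strand) encodes ZIP14, which carries zinc, manganese and non-transferrin iron into cells. It measured 22.9, 19.2 and 22.0 CPM in control mice, 212, 241 and 240.1 CPM in LPS mice, and 129.9 and 50.6 CPM in dual-treated mice 2 and 5. The groups did not overlap, and the dual-treated mice differed 2.57-fold from each other. LPS raised it 10.8-fold (log2 fold change 3.43, SE 0.30, adjusted p = 8.75e-06 from edgeR). Dual-treated mice were 4.22-fold above control (log2 fold change 2.08, SE 0.30, adjusted p = 0.00213 from edgeR) and 2.56-fold below LPS (log2 fold change -1.36, SE 0.31, adjusted p = 0.0047 from edgeR). Against control the log2 fold change was 1.21 without mouse 2 and 2.575 without mouse 5, and against LPS it was -2.22 and -0.85, called each time.

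*Sod2* (ENSMUSG00000006818, chr17:13224095-13259591 of GRCm39, plus strand) encodes the manganese superoxide dismutase of mitochondria. Control mice had 105, 126 and 119 CPM, LPS mice 1123, 935 and 790.4 CPM, and dual-treated mice 274 and 197 CPM. Again the dual-treated mice lay between separate control and LPS groups. The log2 fold change was 3.02 with LPS (SE 0.18, adjusted p = 1.34e-06 from edgeR), 1.01 in dual-treated against control mice (SE 0.18, adjusted p = 0.00627 from edgeR) and -2.01 in dual-treated against LPS mice (SE 0.20, adjusted p = 3.9e-05 from edgeR). Without dual-treated mouse 2 the value against control was 0.73 and no longer called. The other dismutases did not move this way. *Sod1*, the copper-zinc enzyme of the cytosol, measured 549, 516 and 547 CPM in control, 541, 482 and 381 CPM with LPS, and 353 and 407 CPM with dual treatment, and was called in no comparison of the edgeR fit, although several other settings called it lower in dual-treated than in control mice. Extracellular *Sod3* was lower with LPS (log2 fold change -0.79, SE 0.0997, adjusted p = 8.81e-05 from edgeR) and higher in dual-treated than in LPS mice (0.67, SE 0.11).

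The heavy ferritin subunit *Fth1* (ENSMUSG00000024661, chr19:9957911-9962462 of GRCm39, plus strand), which oxidizes iron for storage, measured 2151, 2044 and 2179.8 CPM in control mice. LPS mice 1, 6 and 7 had 9506, 9381 and 7854 CPM, and dual-treated mice 2 and 5 had 4236 and 3295 CPM. No group overlapped another. LPS raised *Fth1* 4.19-fold (log2 fold change 2.07, SE 0.16, adjusted p = 4.16e-06 from edgeR). With library size alone the log2 fold change was 1.78, and the share of all counts was 0.231%, 0.220% and 0.231% in control mice and 0.770%, 0.838% and 0.730% in LPS mice. Dual-treated mice were 1.77-fold above control (log2 fold change 0.83, SE 0.17, adjusted p = 0.0101 from edgeR) and 2.37-fold below LPS (log2 fold change -1.24, SE 0.18, adjusted p = 0.000277 from edgeR). The call against control was lost without control mouse 2 (0.80) and without dual-treated mouse 2 (0.60).

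*Ftl1* (ENSMUSG00000050708, chr7:45107367-45109308 of GRCm39, minus strand) is the light subunit that helps the mineral core form. It measured 467, 458 and 466 CPM in control mice, 619, 628 and 525 CPM in LPS mice, and 485 and 574 CPM in dual-treated mice. The LPS mice lay above the control mice, and the dual-treated mice overlapped the LPS mice. The log2 fold change with LPS was 0.35 (SE 0.12, 95% interval 0.09 to 0.61, adjusted p = 0.0225 from edgeR), and the call was lost without any 1 of the control mice (0.34 to 0.35) or without LPS mouse 6 (0.31). Scaling by library size alone gave 0.06, which was not called; that scaling set the median of all genes at -0.29, and relative to it *Ftl1* stood at 0.35. In dual-treated mice the log2 fold change was 0.19 against control (95% interval -0.10 to 0.48) and -0.16 against LPS (95% interval -0.45 to 0.13), neither called, and the latter was 0.17 with library size alone.

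The ferritin subunits therefore changed unequally within each library. For each *Ftl1* count there were 4.61, 4.46 and 4.68 *Fth1* counts in control mice, 15.3, 14.9 and 15.0 in LPS mice, and 8.74 and 5.74 in dual-treated mice 2 and 5. The dual-treated mice stood between the other groups and apart from each other. On the log2 scale the ratio of *Ftl1* to *Fth1* differed by -1.72 between LPS and control (exact permutation test, two-sided, p = 0.1, adjusted p = 0.225 over 9 tests), by -0.63 between dual-treated and control mice and by 1.09 between dual-treated and LPS mice (exact permutation test, p = 0.2 for both). Annotated ferritin copies held few reads: *Ftl1-ps1* had 79 to 147 counts per library, and adding the counts of the copies to their parent genes changed no call. Exons of other genes cover 41.5% of the exon bases of *Fth1*, the most by *Gm36913* on the opposite strand, and 34.6% of those of *Ftl1*, so that part of their reads is uncertain.

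**Figure D3:**
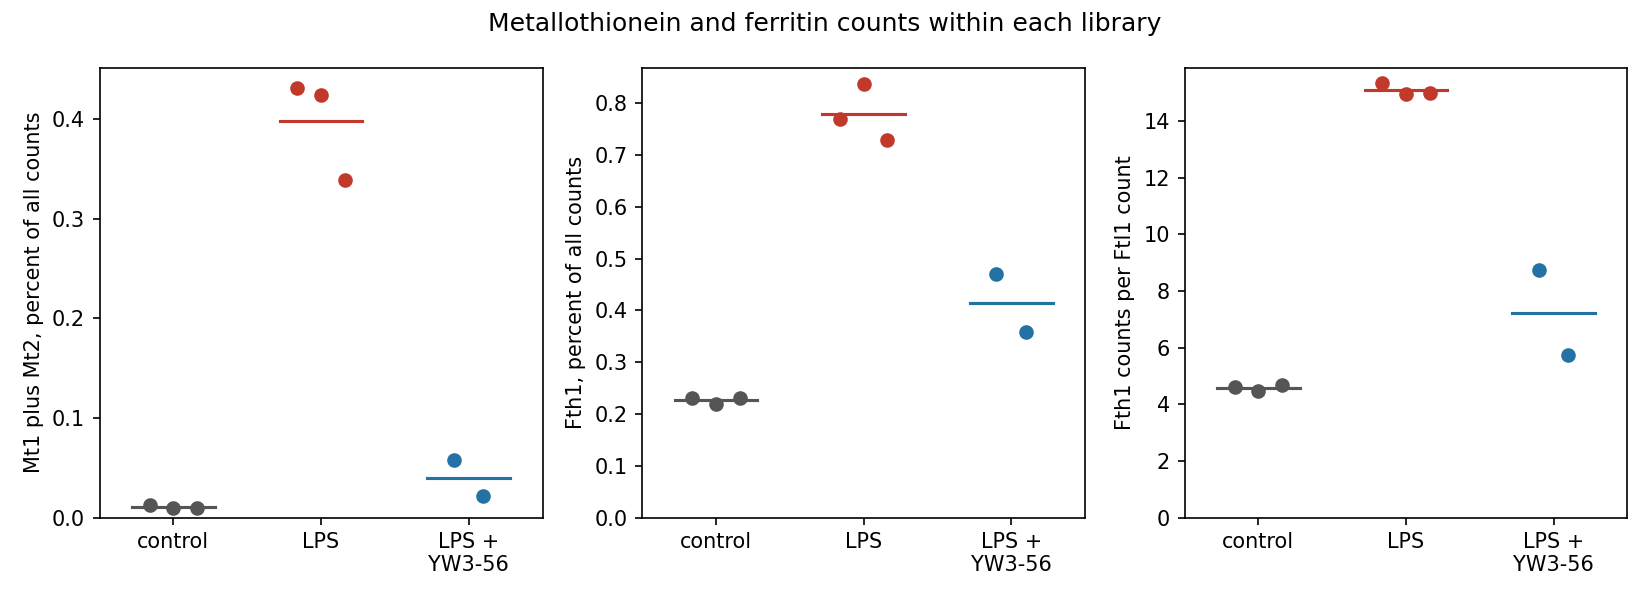
Share of all counts taken by *Mt1* plus *Mt2* and by *Fth1*, in percent, and *Fth1* counts for each *Ftl1* count, in each mouse. Points are mice and lines are group means. LPS mice stand highest in each panel, and the ratio in dual-treated mice is 8.74 and 5.74.

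*Slc11a1* (ENSMUSG00000026177, chr1:74414303-74425448 of GRCm39, plus strand) encodes NRAMP1, which moves iron and manganese out of the phagosomes of macrophages and neutrophils. Its level was 8.32, 6.85 and 6.81 CPM in control mice, 52.7, 85.8 and 56.9 CPM in LPS mice, and 70.2 and 78.0 CPM in dual-treated mice. Unlike *Mt1*, it was as high with dual treatment as with LPS, and these groups overlapped. The log2 fold change against control was 3.15 with LPS (SE 0.20, adjusted p = 1.67e-06 from edgeR) and 3.34 with dual treatment (SE 0.21, adjusted p = 2.98e-05 from edgeR). Dual-treated and LPS mice differed by 0.19 on the log2 scale (95% interval -0.25 to 0.62, adjusted p = 0.432 from edgeR). Without LPS mouse 6 the difference was 0.43 and was called higher. Without LPS mice 6 and 7, which leaves only LPS mouse 1, it was 0.48.

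*Slc11a1* is a gene of phagocytes, and their markers are given beside it. The 10 neutrophil genes summed to 104, 59.2 and 62.4 CPM in control mice, 557, 695 and 463 CPM in LPS mice, and 593 and 709 CPM in dual-treated mice, with *Cxcr1* at 0 counts in LPS mice 1 and 6 and dual-treated mouse 2. The most abundant was *Il1r2* in the LPS mice, *Retnlg* in the dual-treated mice and control mouse 1, and *Csf3r* in control mice 2 and 4. Of these genes 9 were called higher and 1, *Cxcr1*, lower with LPS against control, beside 32.6% and 33.9% of all tested genes. With dual treatment against control 8 were called higher, beside 9.13%. In dual-treated against LPS mice 4 were called higher and 4 lower, beside 31.7% and 27.4%. The 10 macrophage genes, led by *Chil3* and all detected in every library, summed to 869.6, 584 and 802 CPM in control mice, 932, 1017 and 539 CPM in LPS mice, and 1511 and 2019 CPM in dual-treated mice. Of them *C1qb* was called higher and *C1qa* and *Siglecf* lower with LPS, beside 32.6% and 33.9% of all tested genes, and the sums overlapped control. With dual treatment against control 7 were called higher, beside 9.13%. In dual-treated against LPS mice 8 were called higher, beside 31.7%, and 0 lower, beside 27.4%. Their part in the *Slc11a1* result was not tested, and in whole lung fewer cells of a type and less RNA per cell cannot be told apart.

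The iron exporter ferroportin, *Slc40a1* (ENSMUSG00000025993, chr1:45947211-45965683 of GRCm39, minus strand), went the other way. It measured 15.2, 15.8 and 11.8 CPM in control mice, 2.73, 7.33 and 4.86 CPM in LPS mice, and 11.4 and 13.0 CPM in dual-treated mice. All LPS mice were below all others, and the dual-treated mice overlapped control. LPS lowered it 2.86-fold (log2 fold change -1.52, SE 0.30, adjusted p = 0.00158 from edgeR), and dual-treated mice were 2.45-fold above LPS (log2 fold change 1.29, SE 0.33, adjusted p = 0.0074 from edgeR). Between dual-treated and control mice the log2 fold change was -0.22 (95% interval -0.94 to 0.50), which was not called. Without LPS mice 6 and 7, which leaves only LPS mouse 1, the log2 fold change was -2.38 with LPS and 2.15 in dual-treated against LPS mice.

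*Tfrc* (ENSMUSG00000022797, chr16:32427556-32451612 of GRCm39, plus strand), the transferrin receptor, was the only one of the 9 genes called lower with LPS and higher with dual treatment, each against control. Control mice had 55.5, 51.7 and 55.3 CPM, LPS mice 49.6, 40.7 and 37.8 CPM, and dual-treated mice 76.1 and 85.0 CPM. The groups did not overlap. The log2 fold change with LPS was -0.34 (SE 0.11, adjusted p = 0.0223 from edgeR), and this call was lost without control mouse 1 (-0.33), control mouse 4 (-0.33), LPS mouse 6 (-0.30), LPS mouse 7 (-0.25) or both of these LPS mice (-0.12). Against control, dual-treated mice were higher by 0.57 (SE 0.12, adjusted p = 0.0137 from edgeR), a call lost without control mouse 2 (0.54) or dual-treated mouse 5 (0.46). The difference between dual-treated and LPS mice, 0.92 (SE 0.12, adjusted p = 0.000218 from edgeR), was called whichever mouse was left out. Developing erythroid cells are rich in this receptor, and their markers are given beside it. Of the 10 erythroid genes 9 were in the annotated tables, and their sum, led by *Hbb-bs*, was 1738, 3921 and 2790.1 CPM in control mice, 3309, 1896 and 1483 CPM in LPS mice, and 429 and 383 CPM in dual-treated mice, with *Klf1* at 0 counts in LPS mice 1 and 6. Their part in the *Tfrc* result was not tested.

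**Figure D4:**
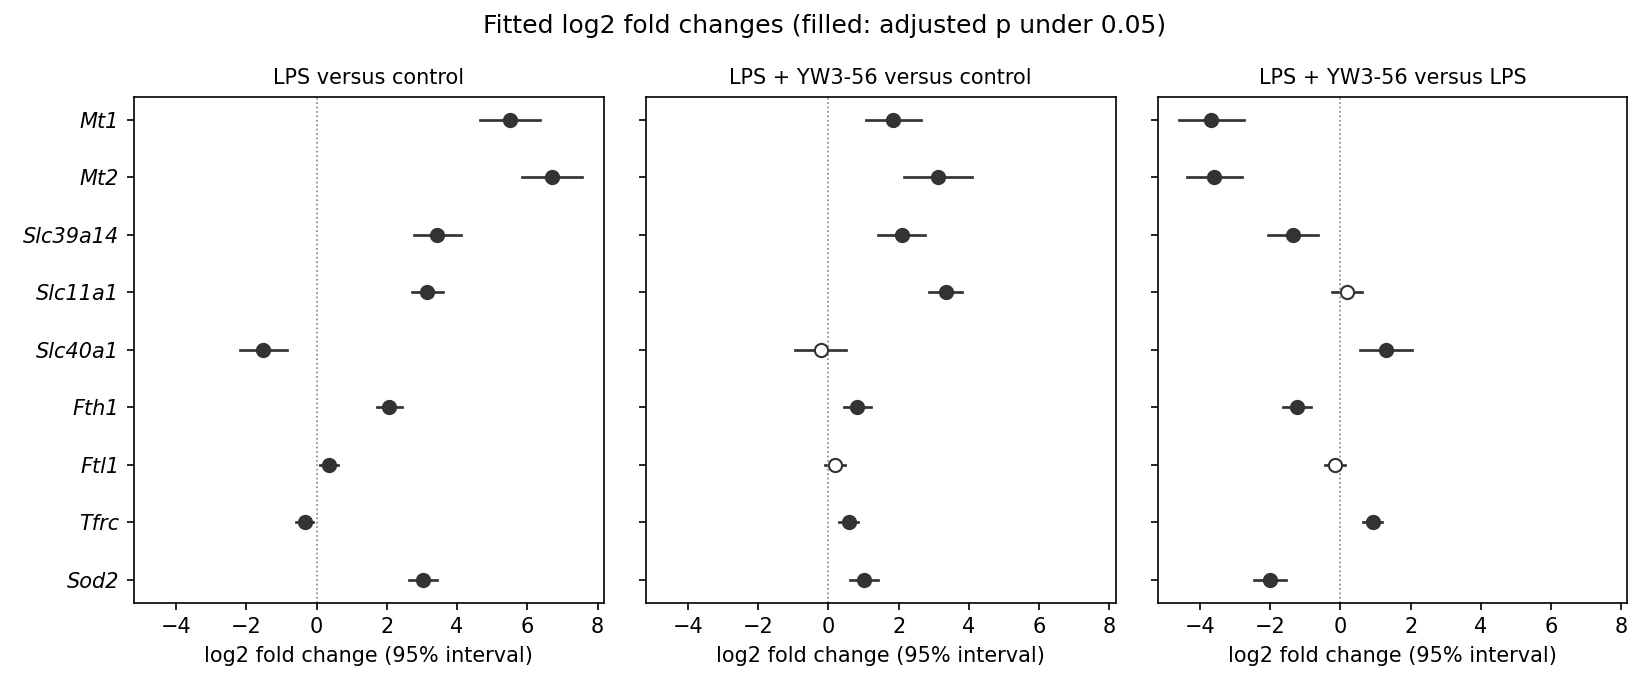
Fitted log2 fold changes of the 9 genes in the 3 comparisons, from the edgeR fit of all 8 mice. Bars are 95% intervals, and filled points were called at an adjusted p under 0.05. *Mt1* and *Mt2* have the highest values with LPS (5.51 and 6.71), and *Tfrc* is on opposite sides of 0 in the LPS and the dual-treated mice against control.

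Transcripts of 4 of the 9 genes share a stem-loop, the iron-responsive element, that binds iron regulatory proteins when cellular iron is low. As background, binding near the start of a transcript blocks its translation, and binding near its end protects it from decay. It was searched as C, 5 bases, CAGTGN and 5 bases that pair with the first 5 (A-T, G-C or G-T) in annotated untranslated regions. *Slc40a1*, *Fth1* and *Ftl1* held 1 match each in the 5′ untranslated region and *Tfrc* held 4 in the 3′ untranslated region. Any matches in *Fech*, *Slc39a6* and *Ftmt* were not recorded, so that nothing can be said of these genes. No other gene of the metal lists matched. Of 21770 protein-coding genes, 0.2205% matched in the 5′ region and 1.12% in the 3′ region. The matches lie on GRCm39 at chr1:45964631-45964647 (minus strand, exon 1 of 8) for *Slc40a1*, chr19:9960102-9960118 (plus strand, exon 1 of 4) for *Fth1* and chr7:45109209-45109225 (minus strand, exon 1 of 4) for *Ftl1*. Those of *Tfrc* lie in exon 19 of 19 (plus strand), at chr16:32450043-32450059, chr16:32450422-32450438, chr16:32450487-32450503 and chr16:32450534-32450550. They are shown to compare the loops, whose first 5 bases are in capitals. The *Fth1* and *Ftl1* matches differ in the last base of the loop and have the same stem. What these matches do in the mice was not tested.
Slc40a1: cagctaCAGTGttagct
Fth1: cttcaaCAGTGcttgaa
Ftl1: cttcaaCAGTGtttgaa
Tfrc, 1: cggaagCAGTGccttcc
Tfrc, 2: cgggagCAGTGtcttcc
Tfrc, 3: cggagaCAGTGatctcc
Tfrc, 4: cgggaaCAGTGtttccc

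Levels can be set against each other only per length, here as CPM per kb of annotated exon. The place of *Mt2* in each order is uncertain, because *Gm45774* covers 82.4% of its exon bases. In control lung the order was *Fth1* (604 ± 20.3, SD, n = 3), *Ftl1* (346 ± 3.60), *Mt1* (79.8 ± 15.0), *Sod2* (8.97 ± 0.821) and *Tfrc* (7.66 ± 0.302), followed by *Slc11a1* (1.84 ± 0.216), *Slc39a14* (1.77 ± 0.156) and *Slc40a1* (1.51 ± 0.231), of which each overlapped the next, and *Mt2* (0.329 ± 0.154). With LPS *Mt1* (3640 ± 680.1 CPM per kb) and *Fth1* (2532 ± 261) led, ahead of *Ftl1* (440.4 ± 42.7), *Sod2* (72.8 ± 12.8), *Mt2* (35.4 ± 1.53), *Slc39a14* (19.1 ± 1.39), *Slc11a1* (16.4 ± 4.51), *Tfrc* (6.04 ± 0.867) and *Slc40a1* (0.528 ± 0.245). *Slc39a14* and *Slc11a1* overlapped in this order. In dual-treated mice *Fth1* (1069.8 ± 189, n = 2) led, followed by *Ftl1* (395 ± 47.1), *Mt1* (285 ± 182), *Slc11a1* (18.6 ± 1.39), *Sod2* (18.1 ± 4.15), *Tfrc* (11.4 ± 0.890), *Slc39a14* (7.47 ± 4.64), *Mt2* (2.93 ± 1.66) and *Slc40a1* (1.296 ± 0.117). Here the mice overlapped for *Ftl1* and *Mt1* and for *Slc11a1* and *Sod2*. With 2 mice and SDs as wide as those of *Slc39a14* and *Mt2*, the rest of this order is not established.

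Each dual-treated mouse can be placed on the way from the control mean to the LPS mean of a gene, on the log2 CPM scale. For *Mt1* mouse 2 had gone 43.4% of the way and mouse 5 17.9%. The values were 52.15% and 33.8% for *Mt2*, 75.9% and 36.3% for *Slc39a14*, 48.3% and 30.7% for *Fth1*, and 40.9% and 25.2% for *Sod2*. Mouse 2 was thus nearer to LPS for each of these 5 genes. *Slc40a1* had gone 18.997% and 7.54% of the way, and *Slc11a1* 105% and 109%, beyond the LPS mean in both mice. *Ftl1* went the other way between the mice, with 18.7% in mouse 2 and 89.5% in mouse 5. *Tfrc* stood on the far side of control from LPS, at -139.8% and -185%.

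The genes nearest to each member were found by the root mean square difference of centred log2 CPM over the 8 mice, among 10390 other genes. *Oasl1* (0.21) and *Mx2* (0.36) were nearest to *Mt1*, and *Cxcl3* (0.37) and *AA467197* (0.59) to *Mt2*. *Serpina3n* (0.24) and *Slc7a5* (0.26) were nearest to *Slc39a14*, and *Tlr13* (0.17) and the neutrophil marker *Mmp9* (0.21) to *Slc11a1*. Nearest to *Fth1* were *Esd* (0.11) and *Psmb8* (0.12), to *Ftl1* *Vamp3* and *Sec11a* (0.05 each), and to *Sod2* *Xaf1* (0.08) and *Ifit3b* (0.12). *Slc40a1* had *2510002D24Rik* (0.18) and *Rnf5* (0.20), and *Tfrc* had *Smpd3* (0.07) and *Ctsa* (0.09). Among the 9 genes themselves the nearest pairs were *Fth1* and *Sod2* and, level with them, *Ftl1* and *Tfrc* (0.44 each), while *Mt1* and *Mt2* differed by 0.66.

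Of 84 other genes of metal handling, 75 were tested. With LPS 31 of them were called higher and 23 lower, with dual treatment against control 17 higher and 4 lower, and in dual-treated against LPS mice 24 in each direction. Their median log2 fold changes were 0.20, 0.06 and -0.12. The shares called higher were 41.3%, 22.7% and 32.0%, to be read beside the shares of all tested genes given above. The counts of each list that follows are read in the same way, against 9.13% higher and 7.02% lower with dual treatment against control and 31.7% higher and 27.4% lower in dual-treated against LPS mice. No list was tested against these shares.

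Of 22 zinc genes tested, 10 were called higher, *Mt4* among them, and 6 lower with LPS (median log2 fold change 0.28), beside 32.6% and 33.9% of all tested genes. There were 3 higher and 1 lower with dual treatment against control (0.02), and 6 higher and 8 lower in dual-treated against LPS mice (-0.30). *Mtf1*, the zinc-sensing factor that acts on metallothionein genes, measured 25.0, 23.5 and 24.2 CPM in control, 32.2, 28.3 and 29.9 CPM with LPS, and 23.1 and 22.1 CPM with dual treatment. Its log2 fold change with LPS was 0.31 (SE 0.0972, adjusted p = 0.0168 from edgeR), a call lost without control mouse 2 (0.29) or LPS mouse 1 (0.27) and with library size alone (0.03). *Mtf1* was called lower in dual-treated than in LPS mice (-0.42, SE 0.11, adjusted p = 0.00928 from edgeR) whichever mouse was left out, though not with library size alone (-0.09). *Slc30a1*, the zinc exporter of the cell membrane and a known target of Mtf1, was lower with LPS, at 32.4, 47.6 and 45.9 CPM against 57.6, 58.6 and 58.2 CPM in control (log2 fold change -0.47, SE 0.14, adjusted p = 0.0122 from edgeR). *Mt1* and *Slc30a1* thus moved in opposite directions with LPS. The zinc and manganese importer *Slc39a8* rose with LPS (log2 fold change 1.11, SE 0.14, adjusted p = 7.31e-05 from edgeR) and was 453 and 433 CPM with dual treatment, within the control values of 408 to 497 CPM.

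Other zinc genes named by rank were *Slc30a9* (log2 fold change -1.02 with LPS) and *Slc39a13* (-1.02), both of which were higher in dual-treated than in LPS mice (0.72 and 1.20). *Slc30a4* rose with LPS (1.16) and was lower in dual-treated than in LPS mice (-1.62). *Slc30a6* showed a higher level with dual treatment than with LPS alone (0.90). *Slc39a7* rose with LPS (1.41), but exons of *Gm20427* on the same strand cover 78.3% of its exon bases. *Slc30a2* (1.54) and *Slc39a11* (0.78) were called higher and *Slc30a4* (-0.45) lower with dual treatment against control, and each of these calls was lost without dual-treated mouse 2 (0.80, 0.55 and -0.51). Those of *Slc30a2* (1.49 to 1.57) and *Slc39a11* (0.72 to 0.84) were also lost without any 1 of the control mice. That of *Slc30a4* was also lost without control mouse 2 (-0.45) or 4 (-0.44) and without dual-treated mouse 5 (-0.45). *Mt4*, the metallothionein of squamous epithelium, had 113 and 150 counts in LPS mice 6 and 7 and 0 counts in each of the other 6 libraries. *Krt13* was at 286 and 887 CPM in these 2 mice.

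Among iron uptake genes *Steap4*, a ferrireductase, had the highest log2 fold change with LPS. It measured 14.6, 14.9 and 11.9 CPM in control, 328, 252 and 305 CPM with LPS, and 121 and 79.3 CPM with dual treatment. Its log2 fold change was 4.42 with LPS (SE 0.20, adjusted p = 4.64e-07 from edgeR), 2.86 in dual-treated against control mice (SE 0.20) and -1.56 in dual-treated against LPS mice (SE 0.20). Of the 11 genes tested, 5 were called higher and 4 lower with LPS (median 0.52), beside 32.6% and 33.9% of all tested genes. There was 1 higher with dual treatment against control (0.18), and 4 in each direction in dual-treated against LPS mice (-0.23). *Steap3* (log2 fold change -1.90 with LPS) and *Slc22a17* (-2.13), a receptor of lipocalin 2, were higher in dual-treated than in LPS mice (1.91 and 1.92). *Slc25a28*, the mitochondrial iron importer mitoferrin 2, rose with LPS (1.41) and was lower in dual-treated than in LPS mice (-1.23). The transferrin gene *Trf* rose with LPS (0.67, SE 0.14) and the iron importer *Slc11a2* rose with LPS (0.52, SE 0.11; 0.22 and not called with library size alone).

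Iron export and its hormonal control were read from further genes. *Cp*, the ferroxidase ceruloplasmin, measured 128, 147 and 130.2 CPM in control, 680.4, 769.6 and 913 CPM with LPS, and 553 and 242 CPM with dual treatment. Its log2 fold change was 2.54 with LPS (SE 0.27, adjusted p = 2.93e-05 from edgeR) and 1.56 with dual treatment against control (SE 0.28, adjusted p = 0.00627 from edgeR; 0.81 and still called without dual-treated mouse 2). *Hamp*, which encodes hepcidin, the hormone that removes ferroportin from the cell surface, measured 4.16, 2.72 and 2.25 CPM in control, 25.6, 36.6 and 17.5 CPM with LPS, and 2.59 and 2.195 CPM with dual treatment. *Hamp* rose with LPS by 3.13 on the log2 scale (SE 0.31, adjusted p = 2.07e-05 from edgeR), while dual-treated mice overlapped control. *Bmp6*, a ligand that drives hepcidin expression in liver, fell from 183, 197 and 244 CPM to 22.0, 17.2 and 19.3 CPM with LPS, and was 152 and 183 CPM with dual treatment (log2 fold change -3.41 with LPS, SE 0.15, and 3.10 in dual-treated against LPS mice, SE 0.16). *Heph*, another ferroxidase, fell with LPS (-1.54) and stood higher with dual treatment than with LPS alone (1.02; 0.66 and not called without LPS mice 6 and 7). *Bmp2* was lower with dual treatment than in control (-0.96). *Hjv* was too (-1.62), at 0.862 and 0.615 CPM, and that call was lost without either dual-treated mouse (-1.91 without mouse 2 and -1.42 without mouse 5) and without control mouse 2 (-1.32) or 4 (-1.71). Of the 8 genes tested 3 were called higher and 2 lower with LPS (median 0.18), beside 32.6% and 33.9% of all tested genes. There were 1 higher and 2 lower with dual treatment against control (-0.33), and 3 higher and 4 lower in dual-treated against LPS mice (-0.45).

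Since *Hamp*, *Hp* and *Hpx* are known as liver genes, liver markers are given beside them. The 10 hepatocyte genes summed to 10.96, 30.0 and 11.7 CPM in control mice, 5.10, 8.20 and 7.98 CPM in LPS mice, and 17.1 and 9.79 CPM in dual-treated mice. *Cyp2e1*, which lung also expresses, was the most abundant of them, *Serpina1a* had 0 counts in every library, and *Fgb* had 0 counts in all control and dual-treated mice. Without *Cyp2e1* the sum of the other genes was 1.57, 1.88 and 1.29 CPM in control mice, 3.38, 2.83 and 2.62 CPM in LPS mice, and 2.59 and 2.15 CPM in dual-treated mice, higher with LPS, unlike the whole sum. With LPS *Ambp* was called higher (4.45) and *Ahsg* (-3.25) and *Cyp2e1* (-1.94) lower, and *Alb* was not called (-0.16). *Alb*, at 1 and 0 counts in dual-treated mice, was called lower there than in control (-4.64) and LPS mice (-4.48). *Ambp* was called higher in dual-treated than in control mice (3.74), and *Ahsg* higher than in LPS mice (4.18). These calls are to be read beside the shares of all tested genes given above. The part of liver RNA in the *Hamp*, *Hp* and *Hpx* results was not tested.

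Genes that sense iron or govern its storage were examined too. *Ireb2*, one of the iron regulatory proteins, rose with LPS by 0.52 on the log2 scale (SE 0.10, adjusted p = 0.00169 from edgeR; 0.23 and not called with library size alone), and *Fbxl5*, which marks it for degradation, rose by 0.95 (SE 0.13, adjusted p = 0.000132 from edgeR). *Fbxl5* was also higher with dual treatment than in control (0.59), a call lost without dual-treated mouse 2 (0.29) or any control mouse. *Aco1*, the other iron regulatory protein, was 61.1, 71.0 and 66.3 CPM in control, 77.9, 76.1 and 74.5 CPM with LPS, and 61.8 and 62.6 CPM with dual treatment. It was called lower in dual-treated than in LPS mice (-0.29), a direction that turned with library size alone (0.03) and a call lost without dual-treated mouse 2 (-0.31), without mouse 5 (-0.32) and without LPS mice 6 and 7 (-0.33). *Ncoa4*, the receptor that delivers ferritin to lysosomes, was called lower with LPS (-0.31, adjusted p = 0.0455 from edgeR), a call lost in several settings, among them without control mouse 2 (-0.23). Of the 6 genes tested 2 were called higher and 1 lower with LPS (median 0.15), beside 32.6% and 33.9% of all tested genes. There was 1 higher with dual treatment against control (-0.05) and 2 lower in dual-treated against LPS mice (-0.26).

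Among haem genes *Hmox1*, haem oxygenase 1, which frees iron from haem, measured 47.2, 64.2 and 46.9 CPM in control, 147, 139 and 109 CPM with LPS, and 266 and 169 CPM with dual treatment, the highest levels of the 3 groups. Its log2 fold change was 1.32 with LPS (SE 0.20, adjusted p = 0.000282 from edgeR), 2.04 with dual treatment against control (SE 0.22, adjusted p = 0.000397 from edgeR) and 0.72 in dual-treated against LPS mice (SE 0.22, adjusted p = 0.0161 from edgeR). The last call was lost without dual-treated mouse 2 (0.34) and without LPS mice 6 and 7 (0.55). *Cd163*, the macrophage receptor for haemoglobin bound to haptoglobin, measured 9.003, 7.98 and 6.12 CPM in control, 2.91, 4.62 and 5.25 CPM with LPS, and 39.1 and 21.5 CPM with dual treatment (log2 fold change 1.98 against control, SE 0.30, and 2.83 against LPS, SE 0.31). Its lower level with LPS (-0.85) was no longer called without control mouse 1 (-0.73), control mouse 2 (-0.83) or LPS mouse 1 (-0.63). *Slc11a1*, *Hmox1* and *Cd163* were high in the same dual-treated mice in which macrophage genes summed to 1511 and 2019 CPM. Without *Chil3* the sums were 854 and 775 CPM in dual-treated mice 2 and 5. They were 278, 275 and 199 CPM in LPS mice 1, 6 and 7, where *Slc11a1* was as high, and 275, 178 and 244 CPM in control mice. The part of macrophage genes in these results was not tested.

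*Hpx*, the haem carrier haemopexin, rose from 0.881, 1.60 and 1.75 CPM to 61.0, 55.0 and 85.7 CPM with LPS (log2 fold change 5.57, SE 0.27, adjusted p = 6.16e-07 from edgeR), and was 4.31 and 3.25 CPM with dual treatment. *Hp*, haptoglobin, rose with LPS (2.93, SE 0.24), and both were lower in dual-treated than in LPS mice (-4.15 and -1.38). The haem carrier *Flvcr2* fell with LPS (-1.39) and was lower with dual treatment than in control (-0.67), a call lost without dual-treated mouse 2 (-0.52) or control mouse 1 (-0.60) or 2 (-0.70). Of the 13 haem genes 5 were called higher and 3 lower with LPS (median 0.25), near the 32.6% and 33.9% of all tested genes. There were 7 higher and 1 lower with dual treatment against control (0.58), and 6 higher and 3 lower in dual-treated against LPS mice (0.30).

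Of 9 copper genes tested, 2 were called higher and 6 lower with LPS (median -0.43), beside 32.6% and 33.9% of all tested genes, and the difference was not tested. In the other comparisons 1 was called higher with dual treatment against control (0.03), and 4 higher and 1 lower in dual-treated against LPS mice (0.37). The copper exporter *Atp7b* fell from 91.2, 84.9 and 90.6 CPM to 15.0, 13.9 and 25.3 CPM with LPS (log2 fold change -2.30, SE 0.21, adjusted p = 1.16e-05 from edgeR), and was 80.1 and 64.0 CPM with dual treatment. *Cox17*, a copper chaperone of mitochondria, fell too (-1.22), whereas *Sco1* (1.11) and the copper chaperone *Atox1* (0.57; 0.28 and not called with library size alone) rose. *Atox1* was also higher with dual treatment than in control (0.80, SE 0.15, adjusted p = 0.00692 from edgeR).

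Secreted proteins that bind metals rose with LPS. *Lcn2*, lipocalin 2, which captures bacterial iron carriers, measured 149, 106 and 154 CPM in control, 14051, 14500.3 and 10156 CPM with LPS, and 4471 and 1199 CPM with dual treatment. Its log2 fold change was 6.57 with LPS (SE 0.50, adjusted p = 4.56e-06 from edgeR), 4.38 with dual treatment against control (SE 0.47, adjusted p = 0.000436 from edgeR) and -2.19 in dual-treated against LPS mice (SE 0.48, adjusted p = 0.00361 from edgeR). Dual-treated mouse 2 exceeded mouse 5 by 3.73-fold for *Lcn2*. Without mouse 2 the log2 fold change of *Lcn2* was 3.11 against control and -3.45 against LPS, and without mouse 5 it was 5.01 and -1.55, called each time. *S100a8* and *S100a9* encode calprotectin, a protein of neutrophils that holds zinc and manganese. *S100a8* measured 45.3, 26.8 and 27.3 CPM in control, 576, 846 and 520.2 CPM with LPS, and 511 and 712 CPM with dual treatment, and differed between dual-treated and LPS mice by -0.08 on the log2 scale (95% interval -0.71 to 0.54). *S100a9* rose with LPS (4.38, SE 0.29) and with dual treatment (3.83, SE 0.30), each against control. In the dual-treated mice it was 832 and 1171 CPM, below the 1183 to 1856 CPM of the LPS mice, a difference of -0.55 (95% interval -1.20 to 0.096) that was not called by edgeR but was by DESeq2. *Ltf*, lactoferrin, rose with LPS (2.07, SE 0.41) and was lower in dual-treated than in LPS mice (-2.21, SE 0.48; -3.13 without mouse 2). Of these 4 genes 4 were called higher with LPS (median 4.34), beside 32.6% of all tested genes. There were 3 higher with dual treatment against control (4.02), and 2 lower in dual-treated against LPS mice (-1.37).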

How the data were processed

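Per the labels and methods, RNA of lung lobes from 1 side was sequenced, and the authors deposited raw gene counts made with FastQC 0.11.9, Trim Galore, HISAT2 2.2.1 (GRCm39) and featureCounts 2.0.1 (versions from the submitters' processing notes). Annotation release, strand setting and multi-mapping are not given in the sources used here. Of the identifiers, 54749 matched GENCODE M39 and 667, with 0.0533% of counts, did not. The counts were fitted in R 4.3.3 with edgeR 4.0.16 (TMM, filterByExpr by group, quasi-likelihood test) as 1 model of 3 groups. The same fit was also run on simulated counts. There, few genes were changed, equally in both directions, so that run does not bear on the scaling between groups. SEs come from the log2 fold change and its F statistic, and log2 CPM used a prior count of 2. DESeq2 1.42.0, other scalings, filters and call rules, and leaving out each mouse were alternatives. Exact permutation tests used scipy.

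The members and lists were chosen with earlier results of these data known. Named are all 9 members, the 2 highest and 2 lowest called genes of each list and comparison with a mean of at least 1 CPM, the 2 genes nearest to each member with a mean of at least 10 CPM, and 14 genes by name.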

Additional observations from a re-analysis of the deposited data

How the results depend on the processing

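Each mouse group holds 2 or 3 animals, and a lone mouse left in the LPS or the dual-treated group is assumed to vary like the other groups. Of 462 recomputed log2 fold changes of the 9 genes, 438 kept their direction and their side of the threshold, 21 lost a call, 2 gained one and 1 uncalled value changed sign. Leaving out 1 mouse gave 1 to 2 genes called lower with LPS, against 2, and 4 to 7 called higher with dual treatment against control, against 7; the 3 lost without dual-treated mouse 2 were *Mt1*, *Fth1* and *Sod2*. The criterion of the methods (fold change over 2 and unadjusted p under 0.05) gave 6 genes called higher (without *Ftl1*) and 1 lower (without *Tfrc*) with LPS, 5 called higher with dual treatment against control (without *Fth1* and *Tfrc*), and 1 called higher in dual-treated against LPS mice (without *Tfrc*). Removing LPS mice 6 and 7 together, an alternative chosen after seeing the data, left only LPS mouse 1 in its group. Over all genes, 12346, 2997 and 10960 were called with LPS, with dual treatment against control and in dual-treated against LPS mice, and 7450, 1944 and 6554 by the criterion of the methods, which counts fewer because of its fold threshold. Without 1 mouse the second count ran from 1220 to 3601. Library size alone shifted the median of all genes to -0.29, 0.04 and 0.38, and the share of calls that were higher to 35.6%, 63.8% and 71.0%, from 49.0%, 56.6% and 53.6%. *Aco1* in dual-treated against LPS mice then reversed to 0.0336; the cause was not tested. The log2 ratio of *Mt2* to *Mt1* differed by 0.10 between dual-treated and LPS mice and by -0.0042 (without LPS mouse 1) to 0.27 when 1 mouse was left out. The log2 ratio of group means of *Mt1* plus *Mt2* kept its direction in every setting run. No paired analysis was made, because neither the labels nor the methods pair mice of different groups, and an equal mouse number in different groups marks no match.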
